A study of Sus scrofa with 12 samples.

Results

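The comparison described here is the mRNA of fetal longissimus muscle at 55 days of gestation (dg) against that at 35 dg, in fetuses of sows on the normal diet (NE). Members were the gene identifiers with at least 1 CPM (counts per megaread, a gene's reads relative to library size) in NE35 or NE55, and 13150 of the 19158 identifiers in the deposited table passed, while 18162 had a read in any library. Of the 13150 genes, 9272 could be paired with a symbol. The study took longissimus muscle, the long muscle of the back, from Large White fetuses at 35, 55 and 90 dg, after the sows had received either a normal or a calorie-restricted (RE) diet from mating on. Polyadenylated RNA gave 1 library for each diet and stage, so NE35 and NE55 are single libraries of animals with no other treatment, on the same diet. RE35 and RE55, the same stages on the restricted diet, share no library with them. The methods name 1 fetus from each of 4 sows per group and do not say whether their RNA was pooled, and fetal sex is not given in the sources used here. With 1 library a side no ratio between NE55 and NE35 has a replicate check, and no p-value is attached to one.

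Skeletal muscle of the fetus forms when precursor cells that express myogenic transcription factors leave the cell cycle, fuse and assemble myofibrils. Primary fibres form first, and secondary fibres then form along them. In the process embryonic and cardiac isoforms of contractile proteins are joined or replaced by fetal and adult ones, and the sarcoplasmic reticulum, the calcium store that couples excitation to contraction, and the enzymes of glycogen use are built up.

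Both libraries were of similar size, with 11091317 reads in NE35 and 11166688 in NE55, and the 6 mRNA libraries held 11091317 to 12985505. NE35 stood apart from the other 5 libraries in genes of other tissues. The summed level of the 26 measured genes of a kidney and mesonephros list was 1220 CPM in NE35, 102 in NE55 and 70.7 to 169 in the other 4 libraries. For 7 genes of liver and plasma proteins it was 127 CPM in NE35, 22.9 in NE55 and at most 23.5 elsewhere, and for 16 genes of epithelium and skin 1067 CPM in NE35, 189 in RE35 and 86.4 to 121 at the later stages. Most of the kidney members passed the filter through NE35, but over all 32 kidney, 17 liver and 17 epithelial identifiers in the table, filtered or not, the sums were 1222, 129 and 1067 CPM in NE35 against 71.5, 21.8 and 195 in RE35. The sum of a gonad and steroid list was not highest there, with 136 CPM in NE35 and 175 in NE55. KIT, a receptor of germ and other cells, alone made up 94.4 and 170 CPM of it. Of the 8 measured members of that list 6 reached 1 CPM in NE35 only and so had to differ. The filter thus in part fixes the count of 6 that were more than 2-fold lower in NE55, beside 17.2% of all genes. The part of such tissue in the ratios below was not tested. Ratios of RE55 to RE35 are given beside those of the NE pair, and for some genes also those of NE55 to RE35, a comparison chosen after seeing the data. The muscle label held in both libraries, since ACTA1, MYH3 and DES, which mark skeletal muscle among them, stood at 298, 2816 and 810.2 RPKM (CPM per kilobase of transcript) in NE35 and at 2602, 5396 and 4078 in NE55. RPKM as deposited were scaled by all reads of a library, so a gene with the same RPKM in both libraries has a log2 ratio above 0 on the scale used for ratios below. In bulk tissue fewer cells of a type and less RNA per cell cannot be told apart.

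Of the 13150 genes, 2056 (15.6%) were more than 2-fold higher in NE55 and 2265 (17.2%) more than 2-fold lower, on CPM scaled by the trimmed mean of M-values (TMM), with a prior count of 2. These are sizes of a ratio between 2 libraries, and for 1232 and 1281 of them the whole 95% counting interval, which covers counting error only, lay past 2-fold. The split depends on scaling, since 47.6% of the genes past 2-fold were higher with TMM and 23.2% with total counts alone, which moved the median of all genes by -0.41 on the log2 scale from -0.04. The lower genes were often ones that NE55 hardly held. Of the 2265, 947 were under 1 CPM in NE55, whereas 357 of the 2056 higher genes were under 1 CPM in NE35, and such genes had to differ to be counted. Past 16-fold there were 36 higher and 233 lower genes. The 3878 genes without a symbol split into 632 higher and 633 lower past 2-fold. Among the 1839 genes with at least 100 CPM in either library the order was the other way, with 431 higher and 122 lower.

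**Figure D1:**
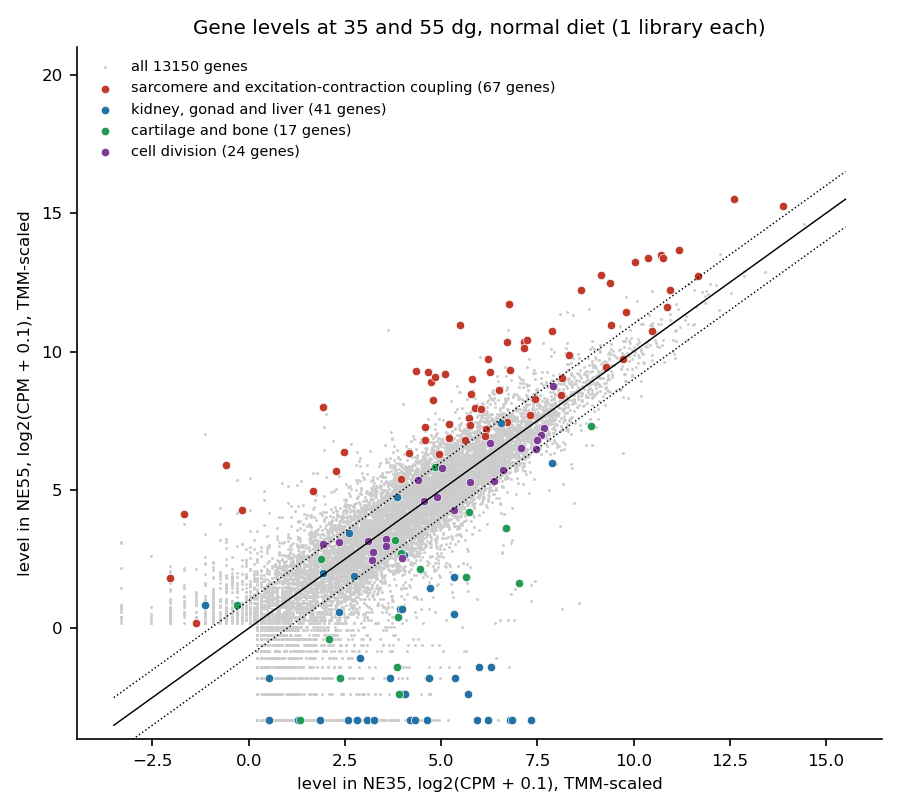
Level of each gene in NE35 (x axis) and NE55 (y axis), both as log2(CPM + 0.1) after TMM scaling, 1 library each, with all 13150 genes in grey, a solid line at equal levels and dotted lines at a 2-fold difference. Sarcomere and excitation-contraction coupling genes (red) lie mostly above the upper line, cartilage and bone genes (green) and kidney, gonad and liver genes (blue) mostly below the lower one, the last with many at 0 reads in NE55, and cell division genes (violet) near equality.

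Stage itself could be tested only with the diets as replicates. The quasi-likelihood test of edgeR over all 6 libraries, with diet as a covariate and 2 residual degrees of freedom, called 144 of 12805 genes with a higher level at the later of these stages (1.12%) and 102 with a lower one (0.797%), at a Benjamini-Hochberg adjusted p under 0.05. All 246 were past 2-fold the same way in the NE pair. That match is in part built in, since the test used NE35 and NE55 and its smallest called absolute log2 ratio was 1.59. In what follows rose and fell are kept for genes that this test called over both diets. The calls rest on single libraries. Without NE35 29 of the 144 and 26 of the 102 remained, without RE35 93 and 52, and without NE55 122 and 87, while all remained without RE55, NE90 or RE90. In all 6 of these repeats 48 of the 246 genes were called.

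Set beside the restricted diet, the normal-diet pair had more genes past 2-fold. Among 12366 genes with at least 1 CPM in a library of each pair, 1918 were higher and 1771 lower in NE, against 864 (6.99%) and 979 (7.92%) in RE. The 411 genes higher in both were 21.4% of the NE list and 47.6% of the RE list, and the 519 lower in both 29.3% and 53.0%. Past 2-fold in opposite directions were 72 genes higher in NE and lower in RE and 82 the reverse. For the genes higher in NE the median RE ratio was 0.26 on the log2 scale, with quartiles of -0.22 and 0.86, and for those lower -0.42, with quartiles of -1.18 and 0.09. The difference between the pairs has no replicate and was not tested. When RE35 took the place of NE35, 1657 genes were higher and 1548 lower in NE55.

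Among genes with a symbol and at least 5 CPM, the 15 with the highest ratios were led by muscle genes. They were ART3, CA3, CMYA5, TMOD4, MLIP, SLN, PPP1R3A, FBP2, MYH8, RGS1, MYOZ1, ASB15, CASQ1, ASB5 and BTNL9, with log2 ratios of 4.36 to 7.96. ASB5, a subunit of a ubiquitin ligase found in skeletal muscle, went from 53 reads in NE35 to 925 in NE55 and from 63 to 669 in RE, a rise that edgeR called in all 6 repeats (log2 3.97, SE 0.429, adjusted p = 0.00203). Its relative ASB15 had 1 read in each 35 dg library and 63 and 35 at 55 dg, a log2 ratio of 4.68 in NE with a counting interval from 3.86 to 11.71, and BTNL9, a butyrophilin-like protein, 24 and 407 reads in NE and 26 and 259 in RE. Both rose in all 6 repeats as well (adjusted p = 0.00678 and 0.00322 from edgeR). RGS1, a regulator of G protein signalling known from lymphocytes, rose from 7 to 216 reads in NE and from 7 to 40 in RE, though not without NE35 (adjusted p = 0.0238 and 0.0625 from edgeR). The 15 lowest ratios, -7.22 to -9.91, included those of BHMT-2, CDH16, KRT18, KNG1, AFP, DIO1, AMBP, GPX3, KRT8, GC, TMPRSS2, CLEC18A and CALB1, genes known from kidney, liver or epithelia. Where NE55 had 0 reads these ratios depend on the prior count and are no bound.

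The contractile apparatus held a larger share of the reads in NE55. The genes of the thick filament, the thin filament and the Z disc together took 5.73% of the reads in NE35 and 18.9% in NE55, against 9.57% in RE35 and 17.5% in RE55, and 22.2% and 22.7% at 90 dg. Of 16 measured thick filament genes 11 were more than 2-fold higher in NE55 and none lower, with a median log2 ratio of 1.88, beside -0.04 for all genes. Over all genes 15.6% were higher and 17.2% lower past 2-fold in NE, shares that also stand beside the list counts below. The thin filament had 12 of 15 higher and a median of 2.48, and the Z disc and its cytoskeleton 19 of 20 and 3.07. In the RE pair the medians of the same members were 1.14, 0.90 and 1.63, and against RE35 in place of NE35 they were 0.93, 1.49 and 1.92.

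Myosin heavy chains, the motors of the thick filament, differed in size of change. MYH3, the embryonic heavy chain, stood at 2816 RPKM in NE35 and 5396 in NE55, a ratio of 1.39 on the log2 scale, and at 2665 RPKM in NE90. It was thus highest at 55 dg, as it was on the restricted diet with 4954, 6887 and 3363 RPKM. An identifier that the reference names MYH8, the perinatal heavy chain, and the study's supplement MYH1 went from 27.2 to 622 RPKM, 31.1-fold in the normal diet, but from 50.4 to 113 in the RE pair. It was not called over both diets (adjusted p = 0.0851 from edgeR). MYH6, the alpha heavy chain of heart, which can share reads with the slow chain MYH7, rose from 52.7 to 329 RPKM, with a log2 ratio of 3.09 in NE and 1.84 in RE (edgeR log2 2.45, SE 0.558, adjusted p = 0.0488). The call was lost without NE35, RE35 or NE55, with an adjusted p of up to 1. Identifiers named MYH1, MYH2, MYH4 or MYH7 in the reference were not analysed here.

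Proteins that bind myosin or modify it were also higher. MYBPC1, the slow myosin-binding protein C, rose from 184 to 1670 RPKM in NE (12.3-fold) and from 341 to 1570 in RE (edgeR adjusted p = 0.029). MYBPC2, its fast counterpart, was at 0.84 and 9.22 RPKM in NE35 and NE55 and at 0.39 and 0.5 in RE35 and RE55. Only NE55 of these 4 libraries was above 1 RPKM, while both 90 dg libraries were, with 39.8 and 36.6 (adjusted p = 0.131 from edgeR). MYOM2, which crosslinks thick filaments in the M band, rose by 3.18 in NE and 1.90 in RE, and MYLK2, the kinase of the regulatory light chain, by 2.16 and 2.01, both on the log2 scale (edgeR adjusted p = 0.029 and 0.0281). Without NE35 none of MYBPC1, MYOM2 and MYLK2 was called, with adjusted p of up to 0.746, 0.874 and 0.746 with 1 library left out. The light chain MYL1 reached 8703 RPKM in NE55, the highest value of the list per length, from 1284 in NE35 (adjusted p = 0.0695 from edgeR).

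In the thin filament the tropomyosin gene TPM2 had the highest level, with 6266 RPKM in NE35 and 34875 in NE55, a log2 ratio of 2.92 that edgeR did not call over both diets (adjusted p = 0.213). TMOD4, which caps the pointed ends of actin filaments, had the largest ratio, from 52 reads in NE35 to 2706 in NE55 (3.22 and 163 RPKM, 66.1-fold) and from 69 to 806 reads in RE. It rose in the test and kept the call whichever library was left out (edgeR log2 4.86, SE 0.62, adjusted p = 0.00443, at most 0.00423 with 1 library left out). LMOD2, an actin nucleator of striated muscle, rose from 19.3 to 265 RPKM in NE and from 54.8 to 232 in RE (adjusted p = 0.0174 from edgeR, up to 0.419 without NE35). Its relative LMOD3 stood at 68.8 and 629 RPKM in NE, 12.4-fold, and at 138 and 194 in RE, with an adjusted p of 0.141 from edgeR. NEB, the ruler of thin filament length, is carried by 2 identifiers, and the one with more reads had 30.9 and 167 RPKM in NE but 70.6 and 65.5 in RE.

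**Figure D2:**
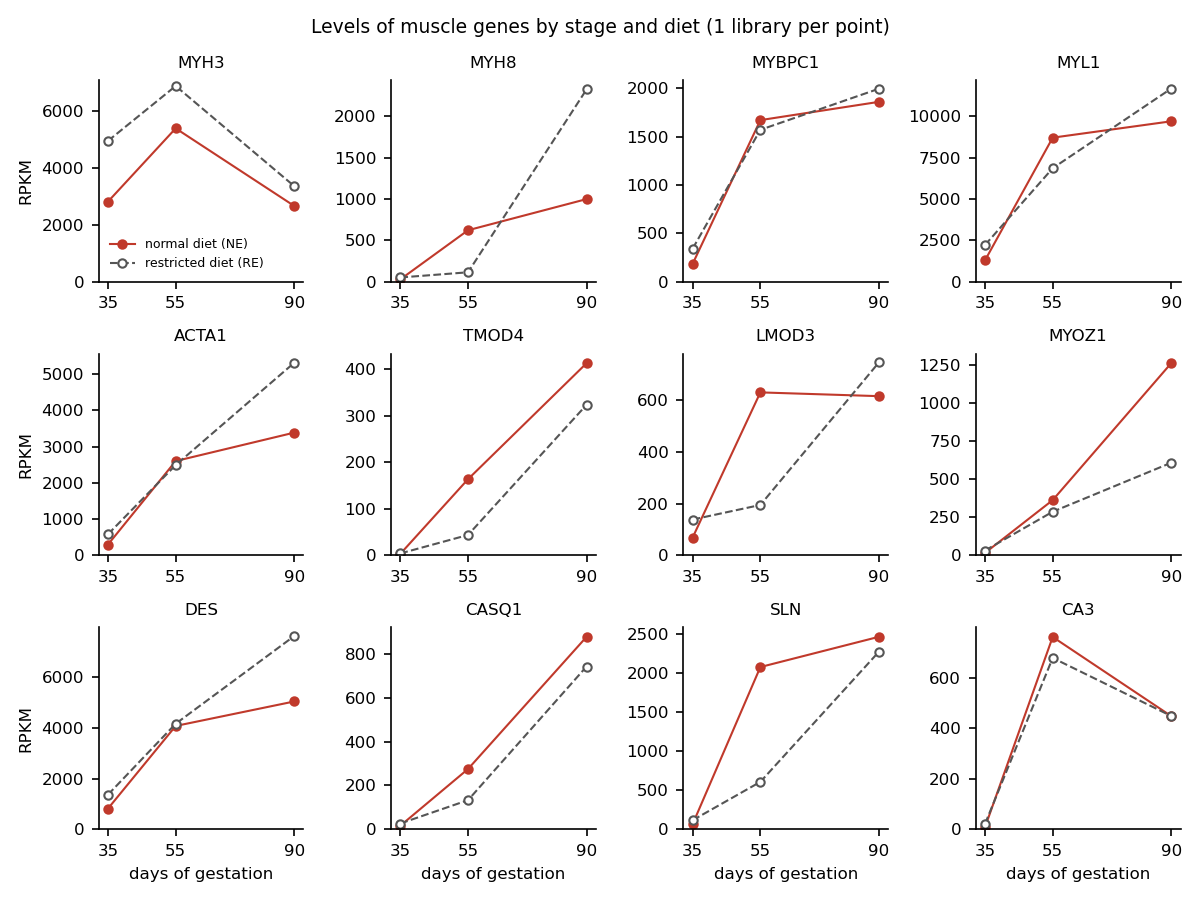
Level in RPKM (y axis, from 0) of 12 muscle genes at 35, 55 and 90 dg (x axis), on the normal (red, filled) and restricted diet (grey, open), 1 library per point and no error bar. MYH3 and CA3 were highest at 55 dg on both diets, and MYH8, LMOD3 and SLN stood well above RE55 in NE55, whereas ACTA1, DES and CA3 were close in the 2 libraries of that stage.

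Isoforms of sarcomeric proteins differed in their ratios. ACTA1, the skeletal alpha-actin, rose from 298 to 2602 RPKM in NE (11.9-fold) and from 582 to 2492 in RE (edgeR adjusted p = 0.0281, lost without NE35 or NE55 with up to 0.705). ACTC1, the cardiac alpha-actin that is the main sarcomeric actin of the embryo, was at 1568 and 2793 RPKM. Per length it was well above ACTA1 in NE35 and close to it in NE55. Among troponin C genes TNNC2, the fast isoform, went from 3605 to 14736 RPKM, with a log2 ratio of 2.48, and TNNC1, the slow and cardiac one, from 1906 to 1404, with 0.01. The slow TNNI1 behaved like TNNC1, with 776 and 628 RPKM and 0.14. TNNC1 and TNNI1 were both higher in RE55 than in NE55, at 3861 and 1938 RPKM. TNNT1, the slow troponin T, did not share this, with 2171 and 3305 RPKM in NE and log2 ratios of 1.05 in NE and 0.23 in RE. None of TNNC1, TNNC2, TNNI1, TNNT1 and ACTC1 was called over both diets, and the ratios of TNNC1 and TNNI1 turn negative when total counts replace TMM.

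**Figure D3:**
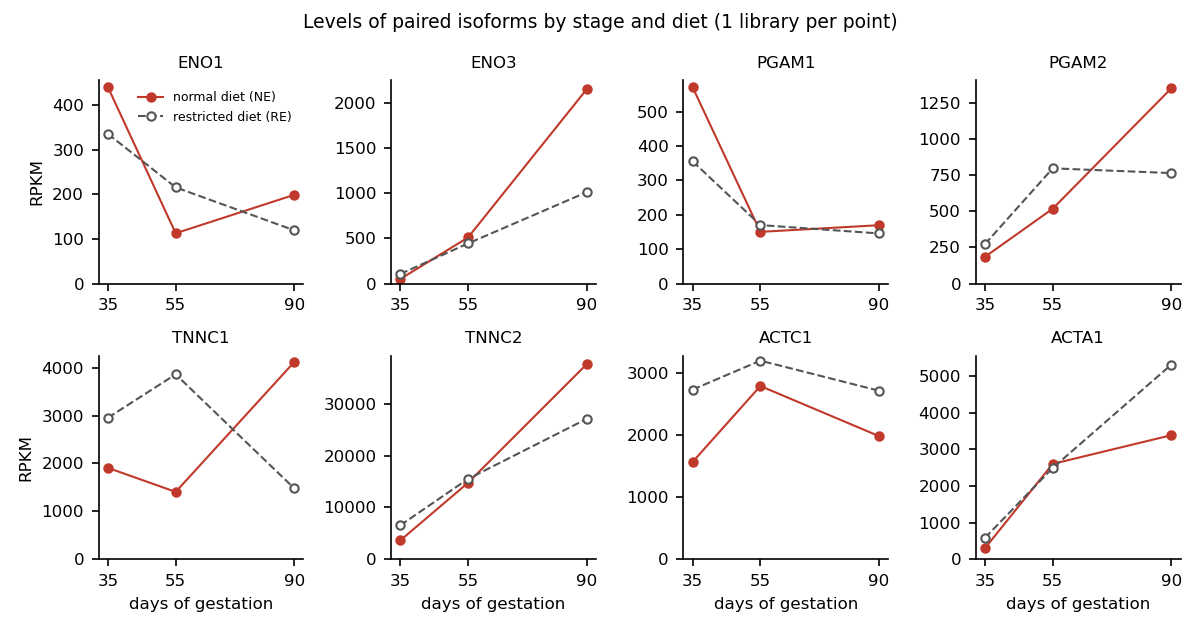
Level in RPKM (y axis, from 0) of paired isoforms at 35, 55 and 90 dg (x axis), on the normal (red, filled) and restricted diet (grey, open), 1 library per point and no error bar. ENO1 and PGAM1 stood lower and ENO3 and PGAM2 higher at 55 than at 35 dg on both diets, TNNC1 stood below its 35 dg level in NE55 and above it in RE55, and TNNC2 was higher at 55 dg on both diets.

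The Z disc anchors the thin filaments of neighbouring sarcomeres, and 9 of its 20 measured genes rose, beside 1.12% of all genes tested. CMYA5, a large protein at the Z disc and costamere, had 8 reads in NE35 and 626 in NE55, 80.6-fold, against 40 and 219 in RE (edgeR log2 4.42, SE 0.79, adjusted p = 0.0174). It was the only one of the 9 called in all 6 repeats with a library left out. MYOZ1, a calcineurin-binding protein of fast fibres, rose from 283 to 6588 reads in NE and from 584 to 5791 in RE (adjusted p = 0.00876 from edgeR), NRAP, a scaffold of myofibril assembly, from 370 to 5062 and from 440 to 2259 (adjusted p = 0.00993 from edgeR), and TCAP, the titin cap, from 1044 to 8922 and from 1862 to 7684 (adjusted p = 0.0222 from edgeR). All 3 lost the call without NE35, with an adjusted p of 0.0672, 0.144 and 0.734 at most. The other members that rose were MLIP, ANKRD2, PDLIM5, CSRP3 and XIRP1, by 5.53 (counting interval 4.78 to 8.64, 3 reads in NE35), 3.26, 3.22, 2.96 and 2.16 in NE on the log2 scale, and they too were not called without NE35. XIRP2, an actin-binding protein of the intercalated disc and myotendinous junction, was 11.1-fold higher in NE55, with 388 and 3252 reads, while RE35 and RE55 had 1105 and 1096 (adjusted p = 0.233 from edgeR).

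Genes of excitation-contraction coupling were higher in 14 of 16 cases, beside 15.6% of all genes, with a median log2 ratio of 2.20 in NE and 1.09 in RE. Of these 5 rose, beside 1.12% of all genes tested. SLN, sarcolipin, the small inhibitor of the calcium pump, stood at 63.6 RPKM in NE35 and 2074 in NE55, 44.3-fold, and at 114 and 604 in RE35 and RE55 (edgeR log2 4.03, SE 0.704, adjusted p = 0.0162). CASQ1, which binds calcium in the reticulum of fast fibres, rose from 15.3 to 275 RPKM (adjusted p = 0.0119 from edgeR), SCN4A, the muscle sodium channel, from 11 to 204 reads (adjusted p = 0.0189 from edgeR), and CACNG1, a subunit of the voltage sensor, from 4.6 to 36.8 RPKM (adjusted p = 0.00917 from edgeR). JPH1, which ties the reticulum to the transverse tubule, was the last of the 5, with a log2 ratio of 2.68 (adjusted p = 0.0468 from edgeR). None of the 5 was called without NE35, where the adjusted p from edgeR was 0.169 for SLN, 0.226 for CASQ1, 0.238 for SCN4A and 0.226 for CACNG1. JPH1 was also lost without NE55, with an adjusted p from edgeR of up to 1 with 1 library left out. TRDN, triadin, was 17.0-fold higher in NE55 (62.1 and 779 RPKM) and was at 121 and 193 RPKM in RE (adjusted p = 0.0889 from edgeR). PVALB, the calcium buffer parvalbumin, was the exception, with 222 reads in NE35 and 1 in NE55, a log2 ratio of -5.93 with a counting interval from -12.70 to -4.89. Its reads in RE35, RE55, NE90 and RE90 were 0, 0, 1 and 5, so it was near 0 outside NE35.

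At the sarcolemma 7 of 12 measured genes were higher and none lower, beside 15.6% and 17.2% of all genes. ART3, an ADP-ribosyltransferase homologue anchored to the membrane, had the largest ratio of all genes with a symbol and at least 5 CPM, from 5 reads in NE35 to 1374 in NE55 (249-fold, counting interval 7.28 to 10.14 on the log2 scale). In RE it went from 12 to 109 reads, and at 90 dg it had 3260 and 3584. It rose in the test (edgeR log2 6.18, SE 1.08, adjusted p = 0.016) and in all 6 repeats. SGCA, alpha-sarcoglycan, POPDC3, a membrane protein of striated muscle, and SSPN, sarcospan, also rose, by 2.40, 2.68 and 2.97 in NE, but none of them was called without NE35. MYMK, the fusogen myomaker, was at 52.8 and 55.0 RPKM and CDH15, the cadherin of myoblasts and satellite cells, at 17.6 and 20.6, both within 2-fold. At the neuromuscular junction no gene was more than 2-fold higher. The receptor kinase MUSK had 4.1 and 2.31 RPKM and the acetylcholine receptor subunit CHRNA1 1.32 and 0.83, and AGRN, the organiser agrin, was 3.24-fold lower in NE55, at 10.8 and 2.44 RPKM (adjusted p = 0.0869 from edgeR). Among 7 measured junction genes the median log2 ratio was -0.22 in NE and -0.30 in RE.

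Of 18 measured transcription factors of myogenesis 7 were more than 2-fold higher and 2 lower, beside 15.6% and 17.2% of all genes. None of the 18 was called over both diets (median log2 ratio 0.73 in NE and 0.01 in RE). MYF6, the factor of late differentiation also known as MRF4, was at 15.4 RPKM in NE35 and 45.4 in NE55, and MEF2C, a cofactor of the myogenic factors, at 27.6 and 87.5. MEF2C was 4.32-fold higher in NE55, and in RE the log2 ratios of MYF6 and MEF2C were 0.94 and 0.46. The factors of commitment, MYF5 and MYOD1, stayed within 2-fold, with 22.1 and 22.6 RPKM for MYF5 and 16.8 and 23.8 for MYOD1. ID2, an inhibitor of the same factors, was at 58.5 and 19.1 in NE and 44.6 and 13.7 in RE. ID2 was thus lower at 55 dg on both diets, with an adjusted p of 0.0881 from edgeR. TCF21, a factor of kidney, gonad and fibroblast precursors, had 190 reads in NE35 and 0 in NE55, which makes it at least 47.7-fold lower against a floor of 3 counts, and at most 4 in any other library.

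Regulators of growth were divided. TRIM63, a ubiquitin ligase of muscle, was 8.21-fold higher in NE55, with 42.7 and 258 RPKM, against 69.4 and 82.6 in RE, and MSTN, myostatin, an inhibitor of muscle growth, had 6.58 and 14.7 RPKM in NE but 13.7 and 8.6 in RE. STMN1, a microtubule regulator of dividing cells, stood at 2358 and 1136 RPKM in NE and 2642 and 2775 in RE. None of the 17 identifiers of this list was called over both diets, and the sign of its median, 0.43, turns with deposited RPKM. Among splicing factors MBNL1, which promotes adult splice forms, had a log2 ratio of 1.28 and RBFOX1 2.15 in NE (0.32 and -0.60 in RE), and PTBP1, a repressor of muscle exons, was lower by 2.36-fold, at 93.2 and 29.0 RPKM. None of these 3 was called. The factor of this list that fell was ESRP1, which belongs to epithelia. Its log2 ratio in NE was -5.48, but it passed the filter through NE35 alone and the ratio depends on the prior count.

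Enzymes of glycolysis and glycogen showed 11 of 24 genes higher and 5 lower, beside 15.6% and 17.2% of all genes. ENO3 and PGAM2, isoforms of muscle, were among the 11 higher and their ubiquitous counterparts ENO1 and PGAM1 among the 5 lower. ENO3, the muscle enolase, rose from 909 to 9496 reads in NE, 13.8-fold, and from 1994 to 9203 in RE (adjusted p = 0.0391 from edgeR, up to 0.81 without NE35). ENO1, the ubiquitous enolase, was 2.86-fold lower in NE55, with 441 and 113 RPKM, and stood at 336 and 216 in RE. In NE35 ENO1 was the higher of the pair per length and in NE55 ENO3 was. PGAM2, the muscle phosphoglycerate mutase, went from 185 to 519 RPKM and PGAM1 from 571 to 150.2, in RE from 273 to 799 and from 355 to 169.9 (adjusted p = 0.117 and 0.17 from edgeR). PYGM, the muscle glycogen phosphorylase, rose by 2.42 in NE and 1.69 in RE on the log2 scale (adjusted p = 0.0417 from edgeR, up to 1 without NE35 or RE35).

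A pair of muscle genes of glycogen and glucose synthesis, PPP1R3A and FBP2, stood far higher in NE55 than in the other 3 libraries of these stages. PPP1R3A, which targets a phosphatase to glycogen in muscle, had 53 reads in NE35 and 1652 in NE55, 39.7-fold, and 194 and 276 in RE. FBP2, the muscle fructose bisphosphatase, had 13 and 453 reads in NE and 0 and 4 in RE. Both were present in the 90 dg libraries, with 729 and 1438 reads for the first and 789 and 830 for the second, and neither was called over both diets (adjusted p = 0.124 and 0.0976 from edgeR).

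CA3, the carbonic anhydrase of slow fibres, had 7.26 RPKM in NE35 and 761 in NE55, 141-fold, and 20.2 and 678 in RE35 and RE55. It was low in both 35 dg libraries and high in all 4 later ones, with 447 and 448 RPKM at 90 dg. It rose in the test in all 6 repeats (edgeR log2 6.08, SE 0.657, adjusted p = 0.00203). AMPD1, the AMP deaminase of muscle, rose by 3.54 in NE and 2.69 in RE (adjusted p = 0.00485 from edgeR) and CKMT2, the mitochondrial creatine kinase of striated muscle, by 2.32 and 1.89 (adjusted p = 0.029 from edgeR), both lost without NE35 with up to 0.0659 and 0.764. CKB, the brain creatine kinase, was lower by 2.49-fold in NE55, at 45.5 and 13.3 RPKM. In fatty acid use 6 of 24 genes were higher, beside 15.6% of all genes. CPT1B, the muscle gate for fatty acids into mitochondria, rose from 33 to 156 reads in NE and from 40 to 212 in RE (adjusted p = 0.0156 from edgeR, up to 0.226 without NE35 or RE35). PDK4, which restrains glucose oxidation, was 5.69-fold higher, with 5.27 and 22.2 RPKM (adjusted p = 0.156 from edgeR).

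In oxidative phosphorylation none of 28 measured subunits was more than 2-fold higher and 3 were lower, with a median of -0.21 in NE and 0.49 in RE. Against RE35 in place of NE35 the median was 0.35, so its sign in NE depends on the 35 dg library. UQCRC1, a core subunit of complex III, stood at 181 RPKM in NE35 and 51.8 in NE55, 2.56-fold lower, and at 92.1 and 106 in RE, so the pairs differed in opposite directions. ATP5ME, a small subunit of ATP synthase, had the same pattern, with 183 and 56.8 RPKM in NE and 125 and 150.2 in RE. For the 23 measured cytosolic ribosomal proteins the median was -0.42 in NE and 0.25 in RE. RPL38 had the lowest log2 ratio in NE, -1.78 against 0.42 in RE, with 2883 and 615 RPKM in NE and 2367 and 2785 in RE. For RPL4 the ratios were 0.47 in NE and 0.06 in RE. No gene of either list was called over both diets.

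Of 24 measured genes of cell division 1 was more than 2-fold higher and 3 were lower, beside 15.6% and 17.2% of all genes. Their median was -0.46 in NE and -0.42 in RE. TOP2A, the topoisomerase of dividing cells, was at 46.8 and 62.5 RPKM in NE and at 59.3 and 27.3 in RE, with log2 ratios of 0.87 and -0.94. PLK1, a mitotic kinase, was lower on both diets, with -1.45 in NE and -0.42 in RE (adjusted p = 0.449 from edgeR). Of the insulin-like growth factor axis 4 of 14 genes were lower and 1 higher, beside 17.2% and 15.6% of all genes. IGF2BP1, an oncofetal RNA-binding protein of IGF2 mRNA, fell from 15.8 to 2.56 RPKM in NE and from 16.2 to 4.28 in RE (edgeR log2 -1.97, SE 0.4, adjusted p = 0.0294), a call lost without NE35 or RE35 with up to 0.535. IGFBP5, a binding protein of muscle, was 2.38-fold lower, at 21.2 and 6.51 RPKM (adjusted p = 0.192 from edgeR).

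**Figure D4:**
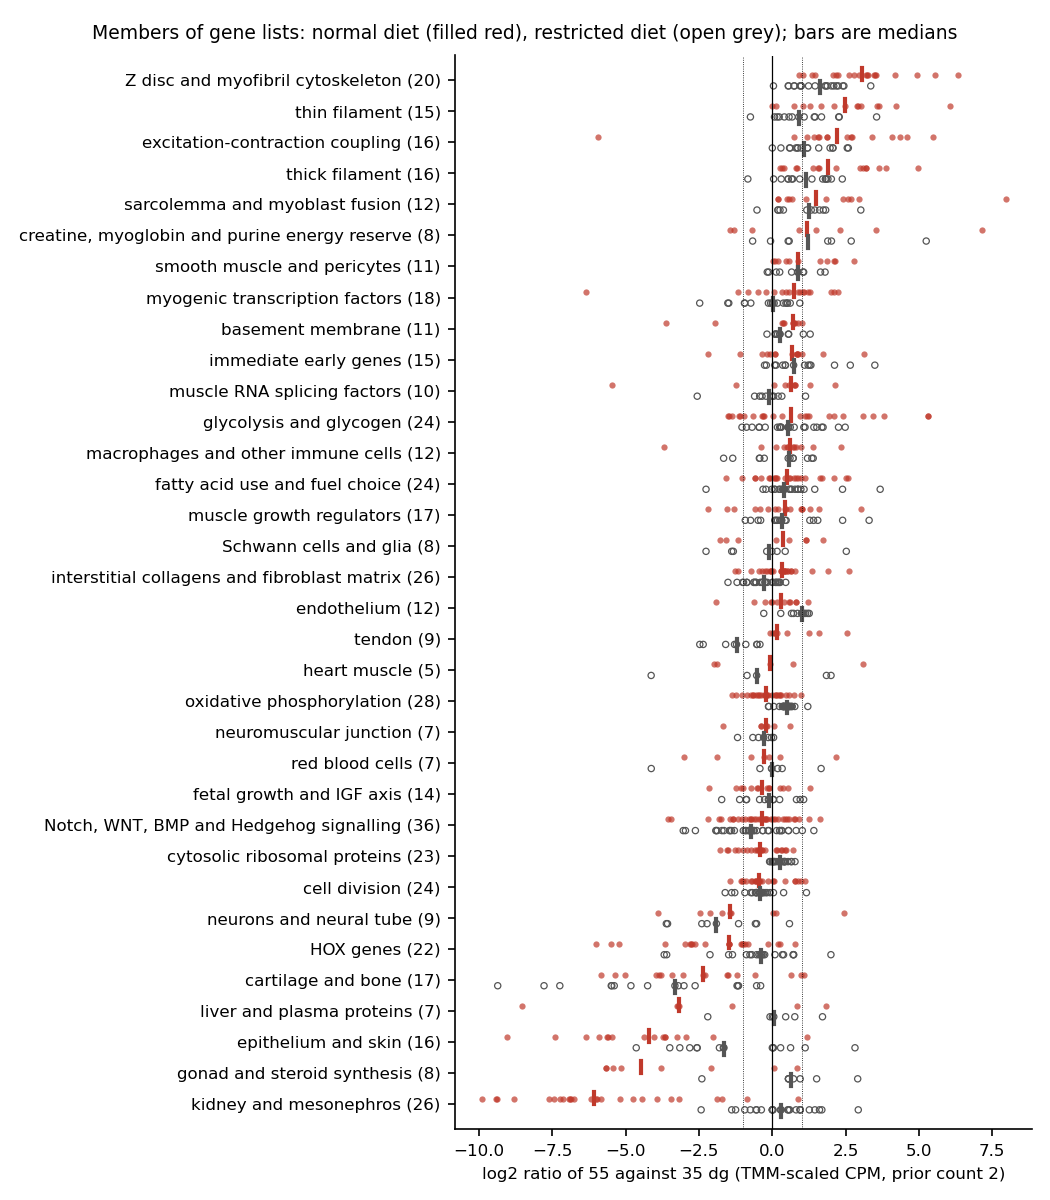
Log2 ratio of 55 against 35 dg (x axis, TMM-scaled CPM, prior count 2) of each measured member of the gene lists (rows, number of members in brackets) on the normal (red, filled) and restricted diet (grey, open), with the medians as bars and dotted lines at 2-fold, 1 library a side. The sarcomere lists have medians of 1.88 to 3.07 in NE and 0.90 to 1.63 in RE, cartilage and bone lie to the left on both diets, and kidney, gonad and liver lists have NE medians of -6.10, -4.48 and -3.19, which the filter in part fixes, since many members passed through NE35 alone and were near 0 reads in RE35.

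Of 26 interstitial matrix genes 3 stood past 2-fold upward and 2 downward, smaller shares than the 15.6% and 17.2% of all genes, and the sign of the median, 0.31, turns with total counts. POSTN, periostin, was 6.06-fold higher in NE55, with 187 and 831 RPKM, but had 318 and 189.6 in RE. COL1A1, a chain of type I collagen, followed the same pattern, with 1372 and 3747 RPKM in NE and 2136 and 1220 in RE, and LUM, lumican, too, with 119.6 and 225 against 111 and 49.7. NE55 was the highest of the 6 libraries for all 3 genes. COL1A2, which encodes the partner chain of COL1A1, did not share it, at 366 and 329 RPKM in NE. FBLN1 and FBLN2, the fibulins, were the 2 downward, with log2 ratios of -1.17 and -1.28 in NE and -1.20 and -0.55 in RE. Among 9 tendon genes 3 were higher in NE and 5 lower in RE, and the sign of the NE median, 0.16, turns with total counts. KERA, keratocan, had 148 and 663 reads in NE and 370 and 145 in RE. None of these genes was called over both diets.

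Genes of cartilage and bone were lower at 55 dg on both diets. Of 17 measured members 13 were more than 2-fold lower and 1 higher in NE, with a median of -2.37 (-3.32 in RE), and 9 fell in the test over both diets, beside 0.797% of all genes. Of the 17, 5 reached 1 CPM in NE35 only. COL9A2, a chain of the type IX collagen of cartilage, went from 1828 reads in NE35 to 32 in NE55 (50.3 and 0.86 RPKM) and from 5956 to 24 in RE. Both 35 dg libraries were high and all 4 later ones low, with 17 and 243 reads at 90 dg (edgeR log2 -6.44, SE 0.837, adjusted p = 0.0046). ACAN, aggrecan, COL9A1, CNMD, chondromodulin, and MATN1, matrilin, fell likewise, with log2 ratios of -2.29, -3.79, -3.88 and -5.02 in NE and -5.47, -5.39, -5.49 and -7.24 in RE. With COL9A2 they make 5 genes called in all 6 repeats. CNMD and MATN1 had 2 and 3 reads in NE55, so their counting intervals are wide (-7.81 to -2.84 and -7.96 to -4.10). RUNX2, the master factor of bone, fell from 206 to 13 reads in NE and from 353 to 10 in RE (adjusted p = 0.0436 from edgeR, 0.0635 without NE35), though DESeq2 did not call it (adjusted p = 0.415). IBSP, bone sialoprotein, had 210 and 1 reads in NE, a log2 ratio of -5.85 with a counting interval from -12.62 to -4.81, and 1460 and 0 in RE. It fell in the test (adjusted p = 0.0013 from edgeR), but without NE35 or RE35 it was below the filter and not tested. The summed level of the list was 950 CPM in NE35, 1825 in RE35, 284 in NE55 and 241 in RE55, and the part of neighbouring skeleton in it was not tested.

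Most measured genes of neurons were likewise lower at 55 dg, with 6 of 9 more than 2-fold lower on each diet. The median was -1.43 in NE and -1.91 in RE. In NE 1 of the 9 was more than 2-fold higher, and 3 reached 1 CPM in NE35 only and so had to differ. Of all genes 17.2% were lower in NE, and 7.92% in RE among those with at least 1 CPM in a library of each pair. STMN2, a microtubule regulator of growing axons, fell from 62.8 to 3.05 RPKM in NE and from 39.4 to 2.9 in RE (edgeR log2 -3.82, SE 0.66, adjusted p = 0.0156) and was called in all 6 repeats. Of the signalling genes of the Notch, WNT, BMP and Hedgehog pathways 10 of 36 were lower and 2 higher, beside 17.2% and 15.6% of all genes. SFRP1, a secreted antagonist of WNT, fell from 9.24 to 0.59 RPKM in NE and from 5.86 to 0.64 in RE (edgeR log2 -3.29, SE 0.445, adjusted p = 0.00485), also in all 6 repeats. Its relative SFRP2 was at 305 and 241 RPKM in NE. LEF1, a transcription factor of WNT signalling, and GLI1, a target of Hedgehog signalling, were lower on both diets, with log2 ratios of -1.76 and -1.82 in NE and -2.62 and -1.88 in RE, but were not called (adjusted p = 0.107 and 0.141 from edgeR). RSPO2, an activator of WNT signalling, was higher in NE55, with 108 and 254 reads, and lower in RE55, with 315 and 91.

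Of 22 measured HOX genes, which give cells their position along the body axis, 16 were more than 2-fold lower and none higher in NE, against 5 lower and 1 higher in RE, and 5 of them reached 1 CPM in NE35 only. Of all genes 17.2% were lower in NE, and 7.92% in RE among those with at least 1 CPM in a library of each pair. The filter was set on the NE pair and left out HOXD13, which had 8 and 0 reads in NE35 and NE55 but 200 and 0 in RE35 and RE55, so the RE count is a lower limit. HOXD10, a gene of the posterior trunk and limb, fell from 221 to 2 reads in NE, a counting interval of -9.43 to -4.51 around -5.48 on the log2 scale, and from 163 to 11 in RE (edgeR log2 -4.81, SE 0.712, adjusted p = 0.00682) and kept the call in all 6 repeats. HOXA11, the other member that fell, had 147 and 0 reads in NE, at least 36.9-fold lower, and 133 and 8 in RE. HOXB8 was high in NE35 alone, with 135 reads in NE35 and 1 in NE55 (log2 -5.23, counting interval -11.98 to -4.17) beside 21 in RE35 and 10 in RE55. HOXA7 was not lower, with 13.9 and 17.4 RPKM in NE.

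The largest ratios downward were those of kidney, liver and epithelial genes, and they rest on NE35. Of the 26 measured kidney and mesonephros genes 19 reached 1 CPM in NE35 only and so had to differ, and 24 were more than 2-fold lower in NE55, while in RE most of them were under 1 CPM at both stages. With the genes at 0 reads in NE55 set at their bound the NE median was -6.00, and those of the gonad and liver lists were -4.07 and -2.25. CDH16, a cadherin of kidney tubules, had 1604 reads in NE35 and 0 in NE55, at least 403-fold lower against a floor of 3 counts, with 0 and 2 in RE35 and RE55. BHMT-2, a betaine-homocysteine methyltransferase, had 2251 and 0 (at least 565-fold lower) and KNG1, kininogen, 1049 and 0 (at least 263-fold lower). GPX3, the plasma glutathione peroxidase, had 5355 and 19 reads, a log2 ratio of -7.60 with a counting interval from -8.46 to -7.09. Against RE35 in place of NE35 its ratio was 0.11. RET, a receptor of the ureteric bud that neurons also express, was within 2-fold, with 3.04 and 4.11 RPKM. None of the 7 members that edgeR could test was called.

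**Figure D5:**
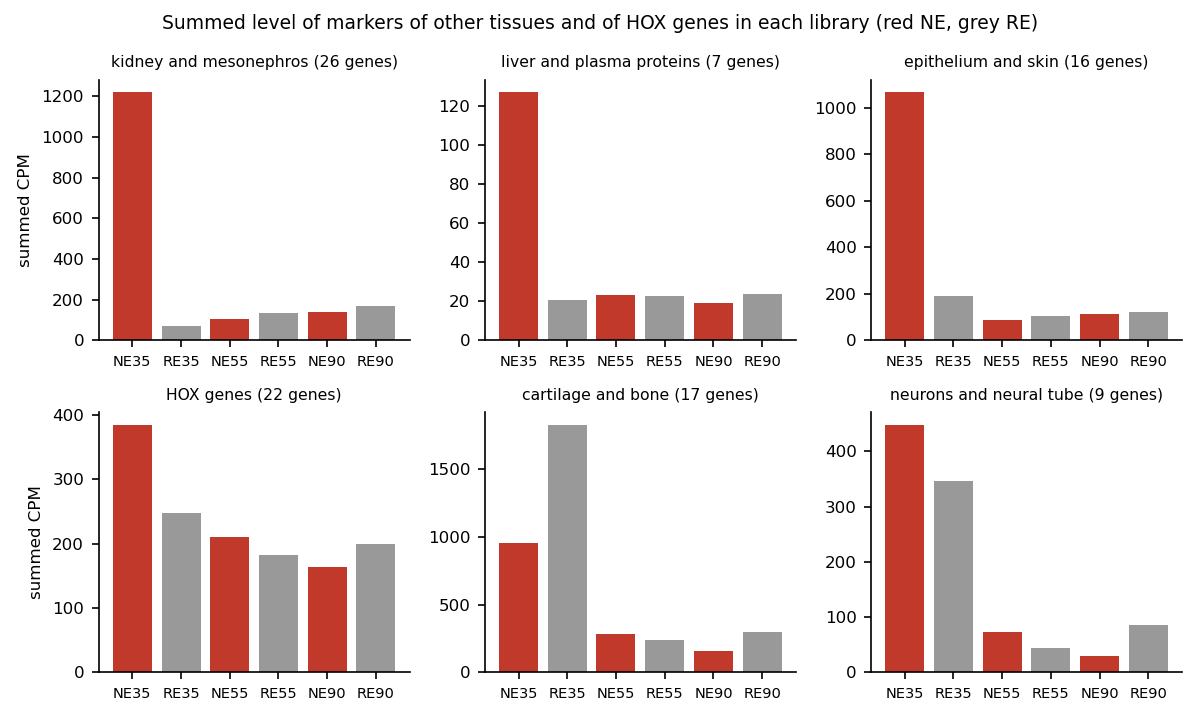
Summed CPM (y axis, from 0) of the measured members of 6 gene lists in each mRNA library (x axis), normal diet in red and restricted diet in grey, 1 library per bar and no error bar. Kidney, liver and epithelial genes stood highest in NE35, with 1220, 127 and 1067 CPM, and HOX genes with 385, while cartilage and bone stood highest in RE35 with 1825 CPM, and neuronal genes were high in both 35 dg libraries with 448 and 346.

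Some liver, steroid and epithelial genes were high in the same library. AFP, the fetal albumin of liver and yolk sac, had 859 reads in NE35 and 0 in NE55 (at least 216-fold lower), CYP17A1, an enzyme of steroid synthesis, 116 and 0 (at least 29.1-fold), and DIO1, a thyroid hormone deiodinase, 509 and 0 (at least 128-fold). Others of these lists were not. ALB, the albumin of liver, had 84 and 115 reads in NE with a log2 ratio of 0.84, APOA1, a plasma apolipoprotein, 5 and 18 with 1.84 (counting interval 0.77 to 4.04), and KIT, a receptor of germ and other cells, 1327 and 1802 with 0.85. KRT8 and KRT18, the keratins of simple epithelia, had 3993 and 1248 reads in NE35 and 16 and 0 in NE55, with 198 and 28 in RE35. KRT18 was thus at least 313-fold lower in NE. Both fell over both diets (adjusted p = 0.015 and 0.0189 from edgeR), but KRT8 lost the call without NE35 (adjusted p = 0.0506) and KRT18 was then below the filter. Of the 16 epithelial genes 9 reached 1 CPM in NE35 only, and 15 were more than 2-fold lower. KRT15, a keratin of basal and skin epithelium, was high in both 35 dg libraries, with 1484 reads in NE35 and 827 in RE35, and had 12 and 30 at 55 dg. It fell in all 6 repeats (edgeR log2 -5.53, SE 0.552, adjusted p = 0.00178). DSP, desmoplakin of desmosomes, fell too, from 1577 to 88 reads in NE (adjusted p = 0.0173 from edgeR, 0.309 without NE35).

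Among 12 endothelial genes 1 was more than 2-fold higher and 1 lower, with a median of 0.28 whose sign turns with total counts, and 1.00 in RE. PECAM1, the adhesion molecule of endothelium, was at 17.0 and 21.7 RPKM in NE, and FLT4, a receptor of lymphatic endothelium, at 1.8 and 0.32. Smooth muscle genes had a median of 0.88 in NE and 0.86 in RE, but DES is shared with skeletal muscle. ACTA2, the smooth muscle actin, had a log2 ratio of 0.10 in NE on the scale of that median, with 329 and 259 RPKM as deposited. In red blood cells HBZ, the embryonic zeta globin, fell from 38 to 2 reads in NE (log2 -3.01, counting interval -6.94 to -1.89) and from 109 to 4 in RE (edgeR log2 -4.31, SE 0.893, adjusted p = 0.0322), and was below the filter without NE35 or RE35. HBB, the beta globin, was at 151 and 67.3 RPKM. SPTB, a spectrin of the erythrocyte that muscle also expresses, rose by 2.17 in NE and 1.66 in RE (adjusted p = 0.0378 from edgeR, up to 0.852 with 1 library left out). Of 12 immune genes 2 were higher and 1 lower, and none was called. Of 15 immediate early genes, which stress and handling can induce quickly, 3 were higher and 2 lower in NE and 7 higher in RE, none of them called.

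The ratio in NE also varied with gene length, taken as reads per RPKM. In the 4 quartiles of length from short to long the median log2 ratio was -0.09, -0.05, -0.02 and 0.11 in NE and 0.05, 0.04, 0.00 and -0.05 in RE. Past 2-fold in NE, the longest quartile had 558 genes up and 293 down and the shortest 428 and 507. The part of length in the ratios of single genes was not tested.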

How the data were processed

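Polyadenylated mRNA of longissimus muscle was sequenced with 1 library for each diet and stage. The deposited counts per gene were made by the authors from reads mapped with TopHat2 and Bowtie to Sscrofa10.2, and the deposited RPKM values were scaled by all reads of a library. The restricted-diet columns of the table are headed SE and were read as RE. Small RNA libraries were not used here. Symbols came from the reference gene table (11010 identifiers) or, where it had none, from identifier and symbol pairs of the study's supplement (369), giving 11379 of 19158, with 24 symbols on more than 1 identifier.

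Counts were scaled by TMM over the 6 mRNA libraries (edgeR 4.0.16, R 4.3.3). Log2 ratios used CPM with a prior count of 2, for the genes past the minimum of 1 CPM in either library of the pair, and 95% intervals were exact conditional binomial intervals, which cover counting error only. A count of 0 was given a floor of 3 counts per library for bounds. Stage was tested with the quasi-likelihood test of edgeR (diet and stage as terms, minimum of 1 CPM reached by 2 or more libraries, Benjamini-Hochberg adjusted p under 0.05), in which the diets serve as replicates, so that the p-values measure the spread between these libraries. Each library was also left out in turn, and DESeq2 1.42.0 was an alternative. The scripts were tested on simulated data.

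Genes were named by rule, as the 15 highest and 15 lowest ratios among those with a symbol and at least 5 CPM, the 10 genes with most reads in each library, the 5 members of each list with the largest absolute ratio and the 2 with the highest RPKM in NE55, all members of lists with at most 8 measured, list members called by edgeR, and paired isoforms. CDH15, COL1A2, HOXD13, ID2, MYF5, MYMK, MYOD1, NEB and XIRP2 fall outside it and were named after their values had been seen. The members and gene lists were chosen with earlier results of these data known. A list's measured members are those with a matched symbol that passed the filter. MYOG, CKM, TTN, TNNI2, TNNT3, MYL2, PAX7 and ATP2A2, among others, were not analysed here, and some genes that the rule names are not reported here.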

Additional observations from a re-analysis of the deposited data

Results flagged for a closer look

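In 9 of the genes named by rule the ratio of 55 to 35 dg was past 2-fold in opposite directions on the normal and the restricted diet. With 1 library a side the difference was not tested. BHMT-2, a betaine-homocysteine methyltransferase, had a log2 ratio of -9.91 in NE, where NE55 had 0 reads and the gene was at least 565-fold lower, and 1.45 in RE, from 2 and 9 reads. STAR, the cholesterol carrier of steroid synthesis, had -3.78 and 2.91, the second from 0 and 14 reads, so that it depends on the prior count. F2, prothrombin, had -3.24 and 1.71, and GATA6, a transcription factor of endoderm and heart, -1.52 and 1.27. In these 4 genes NE35 was the high library of the normal diet.

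The other 5 were higher in NE55 and lower in RE55. KERA, keratocan, had a log2 ratio of 2.55 in NE and -1.29 in RE. CILP2, a protein of cartilage matrix, had 1.58 and -1.59, and COMP, a matrix protein of tendon and cartilage, 1.24 and -1.22. CDH19, a cadherin of Schwann cell precursors, had 1.15 and -1.33, from 19 and 34 reads in NE and 58 and 21 in RE. Its counting intervals, 0.40 to 2.14 and -2.21 to -0.67, reach within 2-fold on both diets. RSPO2, an activator of WNT signalling, had 1.62 and -1.72. Over all genes with at least 1 CPM in a library of each pair, 72 were higher in NE and lower in RE past 2-fold and 82 the reverse.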

How the results depend on the processing

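Scaling and the fold threshold moved the counts. Against 2056 genes higher and 2265 lower, total counts alone gave 1121 and 3704 and deposited RPKM with a pseudocount of 0.1 gave 1046 and 3755, with all-gene median shifts of -0.41 and -0.44. Of the genes past 2-fold 47.6% were higher with the main scaling, 49.99% with TMM over both libraries alone, 23.2% with total counts and 21.8% with RPKM. The whole counting interval past 2-fold gave 1232 and 1281, 4-fold 434 and 895, and at least 5 CPM 1390 lower. Genes lower on both diets numbered 519, and 784 with total counts.

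Over both diets edgeR called 144 higher and 102 lower. DESeq2 called 305 and 227, and 239 of the 246 genes that edgeR called. It also called TPM2, MYL1 and TRDN, which edgeR did not (adjusted p = 0.000164, 8.97e-07 and 0.000471 from DESeq2). In edgeR no filter gave 310 and 378, no diet term 224 and 204, and the 4 libraries of 35 and 55 dg alone 262 and 289. With each library left out the counts were 37 to 861 higher and 28 to 564 lower, the lowest without NE35 and the highest without RE55, and the lone library of a stage was assumed to vary like the others. The cause was not tested. The diet term is the only block in that test. No paired analysis was possible by replicate because each diet and stage has 1 library.

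With RE35 in place of NE35, a comparison chosen after seeing the data, 1657 genes were higher and 1548 lower. The sign of 6 of 35 list medians and of 37 of 256 named genes differed from that against NE35. Among values past 2-fold in the NE pair, the liver and plasma median became 0.20 and log2 ratios became 0.65 for AMBP, 0.11 for GPX3, 0.22 for CLEC18A, 0.65 for PVALB, 0.63 for PIK3IP1, 1.32 for GATM, -0.52 for CILP2, 0.87 for PODXL, 1.71 for STAR, 1.28 for F2, 1.30 for TF, 1.09 for VIL1, 0.94 for GATA6, -0.42 for CDH19, 0.079 for CEBPA, 0.24 for IER3 and 0.73 for IER2. For AMBP, PVALB, STAR and VIL1 RE35 had 0 reads, so these ratios depend on the prior count and give no direction. With total counts the sign of 4 list medians and 21 named genes differed from TMM, and with RPKM 5 and 21. Counted once per alternative, 228 values of list medians stayed within the interval set for them, 86 moved and 1 reversed. For named genes 1178 values stayed, 597 moved and 17 reversed. With 1 library a side the intervals cover counting error only, and they are wide for genes near 1 CPM.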

Other observations

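In the list of macrophages and other immune cells, PTPRC, the pan-leukocyte phosphatase CD45, had a log2 ratio of 2.34 in NE and 1.20 in RE, and CSF1R, the receptor that macrophages need, 1.39 and 0.60. Neither was called over both diets by edgeR. S100A8, a calcium-binding protein of neutrophils, had -3.68 in NE and -1.66 in RE.

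Among immediate early genes NR4A3 and EGR2 had log2 ratios of 3.13 and 1.72 in NE and 1.31 and 0.44 in RE. These rest on few reads, 11 and 86 in NE and 2 and 8 in RE for NR4A3, and 6 and 19 and 4 and 6 for EGR2. Their counting intervals in RE were -0.27 to 5.32 and -1.44 to 2.90. NR4A3 and EGR2 were under 1 CPM in NE35, so they passed the filter through NE55 alone and had to differ. FOS and ATF3 had the larger ratio in RE, with -0.34 and 0.84 in NE and 2.12 and 3.49 in RE, and only FOS differed in sign. None of these 4 genes was called by edgeR.

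In basement membrane LAMB1, LAMB2, LAMC1 and LAMA4, all laminin chains, had log2 ratios of 0.70 to 0.87 in NE and 0.10 to 0.55 in RE. COL4A3 and COL4A4, collagen chains of the filtering membrane of the kidney, were lower in NE55, with -3.62 and -1.96. Of the 11 measured genes of this list 2 reached 1 CPM in NE35 only, and such genes had to differ to be counted. In RE the ratios of COL4A3 and COL4A4 were -0.18 and 1.29.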
